A study of Mus musculus with 8 samples.

Results

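Axon guidance ligands and receptors were represented by 121 probes of 66 genes among the 41174 gene probes of a mouse whole genome 60-mer oligonucleotide microarray. Members were taken by gene name alone: the semaphorins, netrins, Slits and ephrins on the ligand side (33 genes, 58 probes), and the plexins, neuropilins, Dcc and Unc5 genes, Robos and Eph kinases on the receptor side (33 genes, 63 probes). The rule itself used no measured value. A single probe stood for 29 of the genes, and the other 37 had several, up to 6 per gene. Of the 121 probes, 77 were well above background (the scanner software's own flag) in all 16 dye channels, 103 in both arrays of at least 1 RNA pool, and 11 in no channel.

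These genes encode the cues that steer growing axons and the receptors that read them. Semaphorins signal through plexins, the secreted ones with neuropilins as co-receptors. Netrins act through Dcc and the Unc5 receptors, Slits through Robos, and ephrins through Eph receptor tyrosine kinases on the facing cell. In the adult brain the same families limit sprouting and synaptic change after injury, and several, among them Robo4, Unc5b, neuropilin 1 and some ephrins and Ephs, also serve blood vessels.

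RNA came from the right (ipsilateral) hemisphere of male C57BL/6J mice aged 8 to 12 weeks per the labels (the study's methods give a single age within that range), without the olfactory bulb and cerebellum. Permanent middle cerebral artery occlusion (PMCAO) was produced with an intraluminal filament, and in sham mice the external carotid artery was exposed and the wound closed. PACAP38, a neuropeptide that acts through receptors coupled to cAMP, was injected into the ventricle right after the operation at 1 pmol in 1 µL, against 0.9% saline alone, and brains were taken at 6 h or 24 h. Only PMCAO mice with mild neurological grades were used, and the hemisphere held infarct core, penumbra and spared tissue together. Each of the 8 groups was a single pool of RNA from 3 mice, so no spread between animals was measured. On every array a PACAP38 pool was hybridized against the saline pool of the same operation and time, and a second array repeated the pair with the dyes swapped, giving 4 comparisons on 8 arrays. Markers of the labelled tissue were measured: 8 of 8 neuronal, 5 of 6 astrocyte and 6 of 6 oligodendrocyte genes were well above background in all 16 channels. In whole-hemisphere RNA, fewer cells of a type and less RNA per cell cannot be told apart.

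The second sham array of 6 h stood apart from the other arrays before any guidance gene was read. Outlier spots made up 10.65% of its gene spots, against 0.323% to 3.09% elsewhere, and its mean signals correlated with those of the other arrays at 0.89 or less over probes that 8 or more channels measured well above background, where the other 7 arrays correlated with each other at 0.96 or more. Operations were compared between arrays, within the same dye, on a log2 scale after subtracting the 75th percentile of each channel. The spread of these PMCAO minus sham differences over the member probes (median absolute deviation, scaled) was 1.09 and 1.18 in the 2 comparisons that used this array, 0.42 and 0.59 in the 2 from the first arrays of 6 h, and 0.29 to 0.46 at 24 h. The 24 h and 6 h arrays also lay on different slides, so time and slide cannot be told apart.

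**Figure D1:**
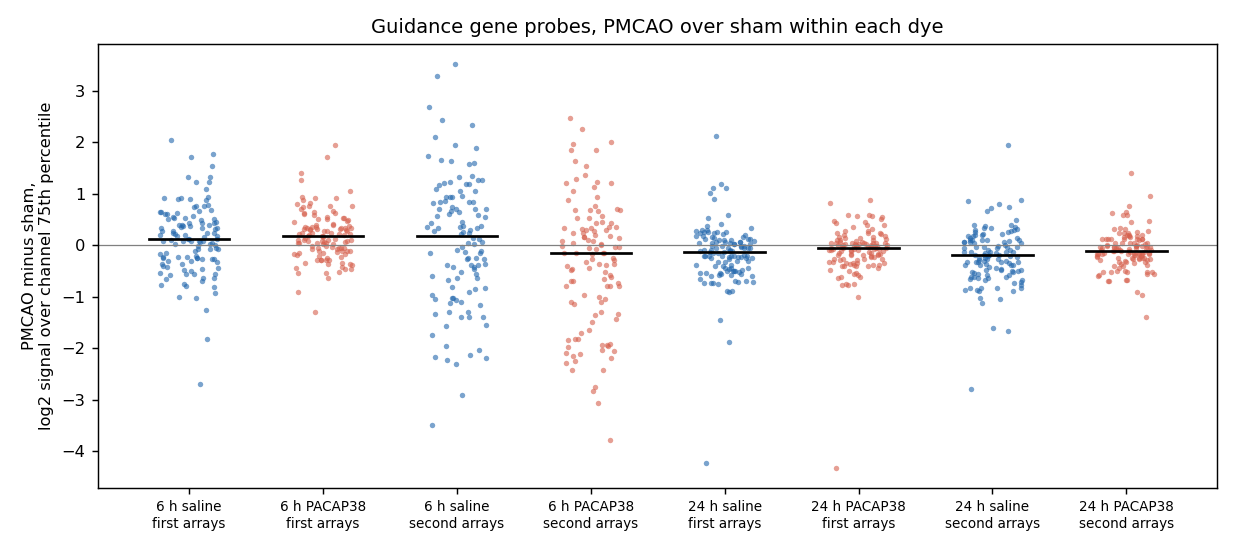
Each point is 1 of the member probes, the x axis gives the 8 same-dye comparisons of PMCAO with sham, the y axis the log2 difference, and black lines are medians (blue, saline pools; red, PACAP38 pools). The 2 comparisons on the second arrays of 6 h spread much wider than the other 6.

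The probe sequences below are shown for the members on which the 24 h results turn and for a pair of Slit3 probes that disagreed. Each is the first 30 bases of a 60-base probe as deposited, 5′ to 3′, with its place on the mm7 mouse assembly used by the array files, and nothing is capitalized. The position within exon or UTR was not looked up, since no annotation of that build was used here.
Epha2 (A_52_P518997, chr4:140707665-140707724, plus strand): agcccctttggacaaatgtcgctgtcagtg
Efna1 (A_51_P266683, chr3:89398658-89398717, minus strand): gatggagaaagaagtggagaaggtccttaa
Robo4 (A_51_P138939, chr9:37342570-37342629, plus strand): accaatgcgctattctcattctaccgccac
Epha6 (A_51_P326699, chr16:59589394-59589455, minus strand): tttttcaatagctctacccacctgcaggtt
Epha6 (A_52_P419582, chr16:60361592-60361651, minus strand): ctaactggatctctcgtgatgctgcacaga
Sema3a (A_52_P527748, chr5:13082961-13083020, plus strand): gaaaagagtagaaagagcactgtaaattac
Slit3 (A_51_P355765, chr11:35565582-35565641, plus strand): gttctataaaagagagtaacagtgttacaa
Slit3 (A_51_P301809, chr11:35561771-35561830, plus strand): aatatgtcttccagtgcacggacggctcct
The 2 Epha6 probes lie far apart in the gene and read the same direction in the comparisons below, whereas the 2 Slit3 probes lie close together and read opposite directions.

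At 24 h after PMCAO, guidance probes were more often lower than higher in the ischemic hemisphere. In the saline pools, 24 of 121 member probes (19.8%), from 18 genes, were under 0.75-fold of sham in both dyes, against 7.58% of all probes, and 3 (2.48%) were over 1.5-fold in both dyes, against 5.74% of all probes. In the PACAP38 pools, 10 members (8.26%) were lower, against 3.19%, and 1 was higher (0.826%), against 3.13%. The median difference over the members was -0.18 (log2) with saline and -0.07 with PACAP38, while the median of all probes was 0.02 and 0.03. Of the lower probes, 9 were lower in both pairs of pools, which is 37.5% of the saline list and 90% of the PACAP38 list. Both pairs were read from the same arrays and the overlap over all probes was not counted, so these shares show nothing particular to guidance genes. These counts describe pools and carry no test across animals.

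The limma fit on the 8 pools called few members at an adjusted p under 0.05. At 24 h it called 0 members higher, against 2.24% of all probes, and 1 of 121 lower (0.826%), against 1.16% of all probes. That probe was a dim one of Slit2 (A_52_P684535), whose saline difference was -4.22 in Cy3 and 0.10 in Cy5, and its level was high (-3.73 and -3.77) only on the first sham array of 24 h, so the call rested on that array. Fitted on the 4 pools of 24 h alone, with 1 residual degree of freedom, limma called 0% of all probes in either direction and 0 members, whose lowest adjusted p was 0.063. At an unadjusted p under 0.05 that fit held 10 members higher and 27 lower, among 5300 probes higher and 5538 lower of 41157. Saline and PACAP38 pools of an operation shared arrays, which neither fit accounts for. With normexp background correction 19 of the 111 members that could be fitted were called lower by limma (17.1%, against 7.26% of all probes) and 0 higher (against 4.99%). With a variance trend 9 of 121 were called lower (7.44%, against 2.56%) and 0 higher (against 3.72%).

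Epha2, a receptor kinase of epithelia and vessels, was the member furthest above sham. Its level, in log2 units above the 75th percentile of its channel, was -2.54 and -2.39 in the sham saline pool, -2.54 and -2.58 in sham with PACAP38, -0.41 and -0.44 in PMCAO with saline, and -1.66 and -1.63 in PMCAO with PACAP38. No PMCAO value overlapped a sham value, and the PMCAO pool given PACAP38 lay between. Here and below, the paired values of a pool are repeat readings of the same RNA and not separate animals. PMCAO over sham was 4.10-fold with saline and 1.89-fold with PACAP38. The limma estimate over both treatments was 1.48 ± 0.46 (SE, log2), adjusted p = 0.16. The fit held 1 PACAP38 term for both operations and times. A PACAP38 difference seen in a single operation or time, and the scatter of the 6 h pools, therefore enter this SE. The same holds for the limma estimates below.

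Efna1, the ephrin that binds EphA2, had the next largest difference with saline, followed by Robo4, the Robo of endothelial cells. Efna1 stood at -3.02 and -2.94 in sham saline, -2.98 and -2.94 in sham PACAP38, -1.83 and -2.08 in PMCAO saline, and -2.54 and -2.47 in PMCAO PACAP38. Robo4 stood at 1.56 and 1.81, 1.52 and 1.65, 2.57 and 2.53, and 1.84 and 1.93 in the same order. In both genes every PMCAO value was above every sham value, and the PACAP38 pool was nearer to sham. PMCAO over sham was 2.03-fold (saline) and 1.37-fold (PACAP38) for Efna1 and 1.83-fold and 1.23-fold for Robo4, with limma estimates of 0.74 ± 0.25 (adjusted p = 0.19) and 0.59 ± 0.26 (adjusted p = 0.29).

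**Figure D2:**
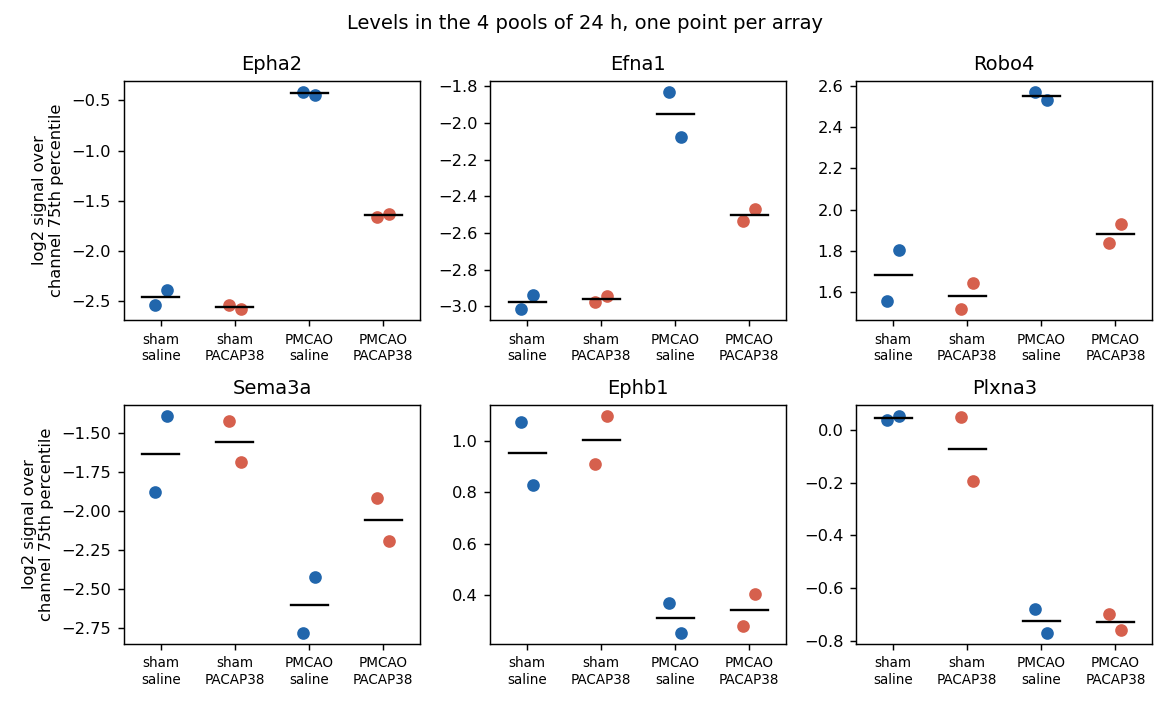
Levels of 6 members in the 4 pools of 24 h (y axis, log2 signal over the channel's 75th percentile, scaled separately in each panel; points, the 2 arrays; lines, their mean; blue, saline; red, PACAP38). Epha2, Efna1 and Robo4 were higher in both PMCAO pools than in sham, with the PACAP38 pool lower than the saline pool, and Sema3a, Ephb1 and Plxna3 were lower in both PMCAO pools.

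Among the semaphorins, 7 of 36 probes were lower in both dyes with saline and 4 with PACAP38, and none was higher in either pair. This count and those of the families below are to be set against 7.58% of all probes lower with saline and 3.19% with PACAP38. Sema3a, the secreted repellent that collapses growth cones, was at -1.88 and -1.39 in sham saline, -1.42 and -1.69 in sham PACAP38, -2.78 and -2.42 in PMCAO saline, and -1.92 and -2.20 in PMCAO PACAP38. The PMCAO values of both pools lay below the sham values, at 0.511-fold of sham with saline and 0.706-fold with PACAP38 (limma -0.74 ± 0.18, adjusted p = 0.081). A second Sema3a probe was at 0.610-fold and 0.796-fold, and the remaining Sema3a probe was not well above background in any pool. Sema5a, a transmembrane semaphorin, was at 0.675-fold and 0.707-fold, a Sema5b probe at 0.672-fold and 0.677-fold, and a Sema6d probe at 0.692-fold and 0.591-fold. The brightest probes of Sema5b (0.742-fold and 0.812-fold) and Sema6d (0.763-fold and 0.769-fold) did not pass in both dyes, and another Sema6d probe read 1.21-fold and 1.16-fold. Sema3e, the ligand of plexin D1, and Sema6a passed the threshold with saline only (0.630-fold and 0.673-fold); their PACAP38 values were 0.846-fold and 0.791-fold, and the difference between treatments was not tested. The brightest semaphorin, Sema7a, stood at 1.04-fold with saline and 0.843-fold with PACAP38.

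Of the other ligands, Slits held the lower probes. The brightest probe of Slit3 was at 3.08 and 3.51 in sham saline, 3.23 and 3.23 in sham PACAP38, 2.35 and 2.48 in PMCAO saline, and 2.70 and 2.56 in PMCAO PACAP38. PMCAO values did not overlap sham values, and the ratios were 0.545-fold and 0.659-fold (limma -0.74 ± 0.17, adjusted p = 0.071). The second Slit3 probe read the other way, at 1.26-fold and 1.46-fold, so the direction of Slit3 depends on the probe. The brightest Slit2 probe was at 0.668-fold with saline and 0.776-fold with PACAP38. None of the 4 ephrin B probes or 3 netrin probes passed in both dyes, and Ntn1 stood at 1.44-fold and 1.21-fold on its brighter probe. The brightest ephrins were Efna5, at 0.787-fold and 0.882-fold, and Efnb3, at 1.02-fold and 0.967-fold.

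Plexins gave 5 of 17 probes lower with saline and 2 with PACAP38. Plxna3, a receptor for secreted semaphorins, was at 0.04 and 0.05 in sham saline, 0.05 and -0.19 in sham PACAP38, -0.68 and -0.77 in PMCAO saline, and -0.70 and -0.76 in PMCAO PACAP38. The PMCAO pools were alike under both treatments, at 0.586-fold and 0.635-fold of sham (limma -0.71 ± 0.17, adjusted p = 0.075). Plxnb3, an oligodendrocyte plexin, was at 0.676-fold and 0.626-fold. Both probes of Plxnc1, the receptor of Sema7a, were lower with saline (0.614-fold and 0.611-fold) and near sham with PACAP38 (0.907-fold and 0.914-fold). The brightest plexin, Plxna2, stood at 0.822-fold and 0.969-fold, and the brightest neuropilin, Nrp2, at 0.771-fold and 0.756-fold. Nrp1 was at 0.747-fold and 0.739-fold on its brightest probe and at 1.28-fold and 1.47-fold on another, so its probes disagreed as those of Slit3 did.

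Eph receptors gave the most varied picture. Ephb1 was at 1.08 and 0.83 in sham saline, 0.91 and 1.10 in sham PACAP38, 0.37 and 0.25 in PMCAO saline, and 0.28 and 0.40 in PMCAO PACAP38, again with no overlap. The ratios were 0.641-fold and 0.631-fold (limma -0.65 ± 0.14, adjusted p = 0.062). Ephb3 was at 0.677-fold and 0.605-fold. In the EphA family 5 of 16 probes were lower with saline and 0 with PACAP38, in Epha3, Epha6 and Epha7, while Epha2 was higher in both pairs. The brightest Epha3 probe was at 0.619-fold with saline and 0.846-fold with PACAP38, and the brightest Epha6 probe at 0.563-fold and 0.825-fold. The brightest EphA probe, of Epha4, stood at 0.783-fold and 0.894-fold.

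Of the 7 Dcc and Unc5 probes, 1 was lower in both dyes with saline and 1 with PACAP38, and of the 11 Robo probes 2 and 0. The brightest Unc5c probe was at 0.612-fold with saline and 0.820-fold with PACAP38, its second probe at 1.11-fold and 1.07-fold, and the brightest Robo2 probe at 0.691-fold and 0.811-fold. Robo1 did not pass, at 0.766-fold and 0.870-fold. Unc5b, a netrin receptor of endothelium and neurons, was at 0.963-fold with saline and passed with PACAP38 alone, at 0.548-fold. The brightest netrin receptor, Unc5a, stood at 1.02-fold and 1.04-fold.

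**Figure D3:**
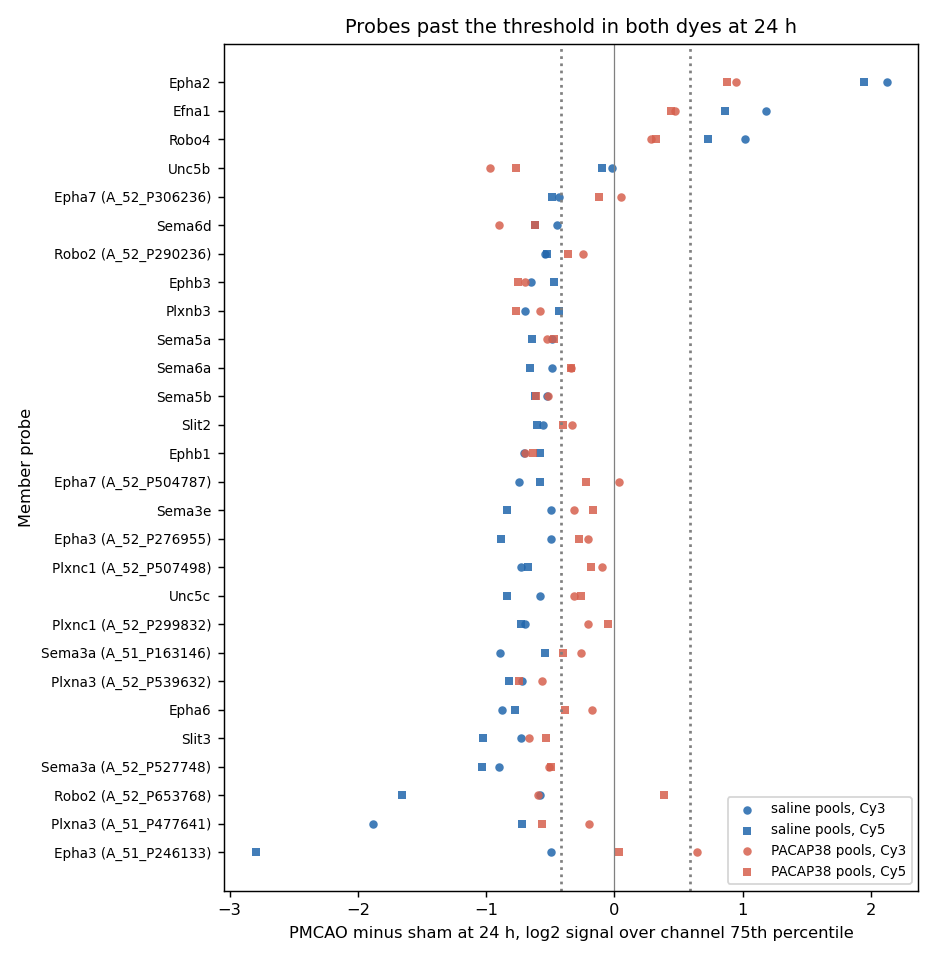
PMCAO minus sham at 24 h (x axis, log2) for the 28 member probes past the threshold in both dyes in either pair of pools, sorted by the saline mean (blue, saline; red, PACAP38; circle, Cy3; square, Cy5; dotted lines, 1.5-fold and 0.75-fold). Of the 25 lower probes, 24 entered through the saline pair, so the order of blue and red points is in large part set by how the probes were chosen.

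Of the lower saline probes, 3 were not well above background in the PMCAO pool and have only bounds. On the loess and Aquantile scale, with the lowest signal well above background of each array as the floor, Plxna3 (A_51_P477641) was at least 1.85-fold lower and Robo2 (A_52_P653768) at least 1.32-fold lower in PMCAO with saline, and the bound for Epha3 (A_51_P246133) was 1.00-fold.

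At 6 h the comparison of operations depended on the second arrays, among them the sham array that stood apart. With both arrays, limma called 27 members higher (22.3%) and 28 lower (23.1%), against 20.3% and 22.7% of all probes. With the 6 h pools read from the first arrays alone, it called 0 members in either direction, against 0.476% of all probes higher and 0.0292% lower, and 22 members higher and 9 lower had an unadjusted p under 0.05, among 5590 and 2483 of 41158 probes. The change of the PMCAO difference from 6 h to 24 h was called upward for 11 members (9.09%) and downward for 15 (12.4%), against 12.7% and 10.7% of all probes. It was called for 0 members with the 6 h pools read from the first arrays alone. Values from the first arrays are therefore given for 6 h, each with 1 array per pool, which leaves out the second PMCAO array as well.

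On the first arrays of 6 h, Epha2 and Efna1 were already above sham. Epha2 was 1.70 (log2) above sham with saline and 0.82 with PACAP38, and Efna1 1.22 and 0.65. Their limma estimates with the 6 h pools read from the first arrays alone were 1.26 ± 0.46 (adjusted p = 0.23) and 0.94 ± 0.22 (adjusted p = 0.14). The comparison on the second arrays gave 0.93 with saline and -0.02 with PACAP38 for Epha2, and 1.23 and 0.53 for Efna1. All 3 probes of Nrp1, the co-receptor of secreted semaphorins and of VEGF, were above sham on the first arrays, by 0.60, 0.62 and 0.74 with saline and by 0.67, 0.75 and 1.95 with PACAP38; 0 of the 3 was called. Sema3a was 0.76 below sham with saline (a difference of -0.76) and at -0.28 with PACAP38, and Sema6a at -1.02 and -0.28. Ephb1, lower at 24 h, was at 0.66 and 0.23. Efna2, an ephrin of the A class, was at -1.26 and -0.39 on the first arrays and at -3.48 and -3.77 on the second. The 10 members called highest at 6 h with both arrays lay between 1.02 and 1.63 (Sema3f on 2 probes, Efna4, Nrp1 on 2 probes, Sema5b, Plxna4, Efna3, Ephb4 and Ephb1) and the 10 lowest between -2.23 and -1.15 (Efna2, Epha3, Plxnb1, Sema3d, Sema4d, Sema3g, Epha5, Plxna2, Epha7 and Sema6d). The Sema4d probe among them (A_52_P515495) was well above background in only part of the 6 h channels, and the brighter Sema4d probe (A_51_P146320) read the other way on the first arrays, at 0.54 with saline and 0.11 with PACAP38.

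PACAP38 was compared with saline within arrays, as the log2 ratio with the sign turned on the dye-swapped array. In PMCAO at 24 h, 5 of 121 members (4.13%) were under 0.75-fold on both arrays, against 3.75% of all probes, and 4 (3.31%) were over 1.5-fold, against 0.823%. Those 4 were both Epha6 probes, an Epha3 probe and a Robo2 probe, and the Epha3 and Robo2 probes were not well above background with saline. The other comparisons held fewer, and that of sham at 6 h included the array that stood apart. In sham at 24 h there were 0 either way, against 0.226% of all probes over and 0.892% under the threshold. In PMCAO at 6 h there was 1 each way of 120 members with a value on both arrays (0.833%), against 1.14% and 1.63%, and in sham at 6 h 2 of 112 over the threshold (1.79%) and 0 under, against 0.79% and 1.04%. With the mean of the 2 arrays in place of both arrays, the counts were larger. In PMCAO at 24 h, 10 members (8.26%) were over and 9 (7.44%) under the threshold, against 2.99% and 8.18% of all probes, and in sham at 24 h 0 and 1, against 1.75% and 3.87%. In PMCAO at 6 h there were 5 over and 4 under, against 5.41% and 6.9%, and in sham at 6 h 5 and 3, against 3.98% and 7.48%. Averaged over the 4 comparisons, limma called 0 of 111 members and 0% of all probes in either direction, with 4 members higher and 3 lower at an unadjusted p under 0.05, among 1029 and 753 of 36121 probes.

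In the 24 h PMCAO comparison the 5 lower members were Epha2, Unc5b, Sema4a, Robo4 and Epha10, all well above background in both pools on both arrays. Epha2 read -1.24 and -1.17 on the 2 arrays (0.434-fold), against -0.02 and -0.18 in sham at 24 h. Unc5b read -0.77 and -0.77 (0.588-fold), against -0.03 and 0.10 in sham. Sema4a, a semaphorin of immune and endothelial cells, read -0.76 and -0.71 (0.600-fold), against -0.14 and -0.17 in sham. In each of these the 2 arrays lay closer to each other than to either sham array. The 2 arrays hold the same RNA and the genes were chosen for passing on both, so this closeness was largely fixed in advance.

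Robo4 read -0.72 and -0.58 (0.636-fold) and Epha10, a kinase-inactive Eph, -0.48 and -0.42 (0.732-fold). In sham at 24 h they read -0.05 and -0.15, and -0.22 and -0.27. Efna1 read -0.70 and -0.37, past the threshold on 1 array only. At 6 h in the ischemic hemisphere Epha2 read 0.03 and 0.14, Unc5b 0.15 and 0.26, and Epha10 0.40 and 0.30, so these 3 pointed up or lay near 0 at the earlier time. In sham at 6 h Epha2 read 0.95 and 0.58, just short of the threshold on the second array, which is the array that stood apart.

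Epha6 was higher on both of its probes in PMCAO at 24 h. The brighter probe read 0.67 and 0.66 (1.58-fold) and the other 0.66 and 0.97 (1.76-fold), against 0.15 and 0.04, and 0.22 and 0.49, in sham. Both probes were lower in PMCAO than in sham with saline, so that the PACAP38 pool lay nearer to sham (0.825-fold and 0.955-fold). With normexp correction the 2 probes averaged 0.32 and 0.39 and did not pass, whereas Epha2 (-1.10), Unc5b (-0.76), Robo4 (-0.68) and Sema4a (-0.76) kept their side of the threshold and Epha10 (-0.36) did not.

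**Figure D4:**
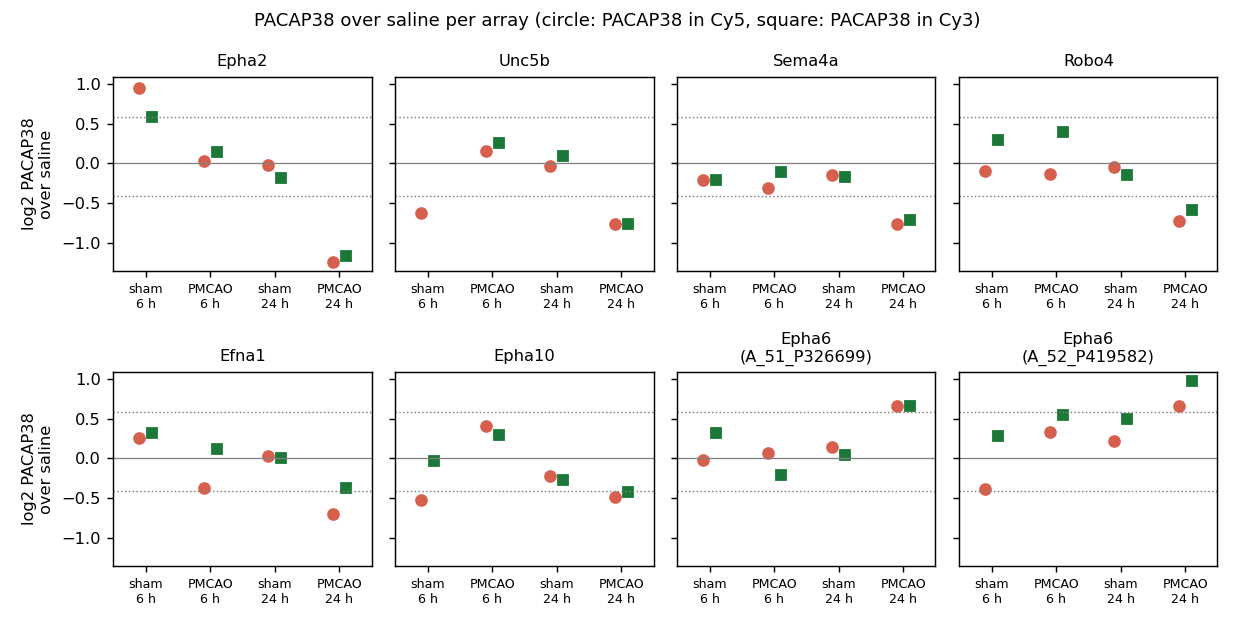
PACAP38 over saline (y axis, log2 ratio) for 7 genes in the 4 comparisons (circle, PACAP38 in Cy5; square, PACAP38 in Cy3; dotted lines, 1.5-fold and 0.75-fold). In PMCAO at 24 h both arrays pass the lower line for Epha2, Unc5b, Sema4a, Robo4 and Epha10 and the upper line for both Epha6 probes. These probes were drawn because they passed there, so that result was fixed by the choice. In no other comparison do both arrays pass. The missing Unc5b square in sham at 6 h was an outlier spot, so Unc5b could not pass on both arrays there.

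The remaining probes past the threshold were not well above background on at least 1 array. Epha3 (A_51_P246133) and Robo2 (A_52_P653768) in PMCAO at 24 h were not well above background with saline and were so on 1 of the 2 PACAP38 arrays, which bounds them at 1.61-fold and 1.06-fold higher at least. The brightest Epha3 probe read 0.47 and 0.42 there, and the brightest Robo1 probe 0.28 and 0.17. Sema4b in PMCAO at 6 h read -0.86 and -1.17, and averaged -0.11 with normexp. Robo2 (A_52_P653768) and Plxna4 (A_52_P650037) in sham at 6 h and Robo1 (A_52_P30152) in PMCAO at 6 h were not well above background with saline on any array.

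The PMCAO over sham and PACAP38 over saline differences at 24 h share the PMCAO pools, so both values of a gene are not independent of each other. Set side by side, Epha2, Efna1 and Robo4 were above sham and lower with PACAP38, the brightest probes of Sema3a, Epha3, Epha6 and Epha7 were below sham and read above 0 with PACAP38, and Plxna3, Plxnb3, Ephb1 and Ephb3 were below sham with PACAP38 ratios between 0.937-fold and 1.03-fold. Unc5b and Sema4a went another way, ending below sham with PACAP38. With saline, Unc5b levels were 0.67 and 0.68 in PMCAO and 0.69 and 0.77 in sham. With PACAP38 they were -0.10 and -0.11, and 0.67 and 0.86. Sema4a levels with saline were 2.39 and 2.43 in PMCAO and 2.13 and 2.06 in sham. With PACAP38 they were 1.62 and 1.69, and 2.00 and 1.87.

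Other genes of the pathway were read from lists that did not overlap the members, to be set against the 7.58% of all probes lower and 5.74% higher with saline, and 3.19% and 3.13% with PACAP38. Of 17 netrin, RGM and adhesion co-receptor genes, 2 were lower at 24 h with saline in both dyes (Chl1, a neural adhesion molecule, at -0.52, and Flrt2, an Unc5 ligand, at -0.66) and 0 higher, with a median of -0.22. With PACAP38 1 was lower, Ntng2, a membrane-bound netrin, at -0.66. Of 48 cytoplasmic effectors, 5 were lower, among them Srgap2, which acts downstream of Robo, at -0.57, and 1 was higher, Vasp, an actin regulator, at 0.80, with a median of -0.19. With PACAP38 1 effector was lower, Srgap2 at -0.49, and 0 were higher. Of the 5 CRMP genes, which carry semaphorin signals to microtubules, Crmp1 was lower at -0.47 and Dpysl2 stood at -0.12. Of 10 myelin inhibitor genes, Rtn4r, the Nogo receptor, was lower at -0.50. Neither the CRMP nor the myelin inhibitor list had a gene past the threshold with PACAP38. Of 8 growth-associated genes, Atf3 and Sprr1a, both injury-induced in neurons, were higher at 4.35 and 1.04 and Gap43 stood at -0.42. With PACAP38 Atf3 was higher at 3.57, and Sprr1a, at 0.30, did not pass.

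Markers of some cell types and regions also differed from sham at 24 h, and not all in the same way. Genes of the acute response to ischemia were higher in both dyes at 24 h in 8 of 8 with saline (median 3.13) and 6 of 8 with PACAP38 (median 2.03), where Fos was lower at -0.83, and 8 of 8 were under 0.75-fold with PACAP38 in the ischemic hemisphere. Of 6 endothelial genes, 3 were higher and 1 lower with saline, 1 higher and 2 lower with PACAP38, and 2 were lower in PACAP38 over saline (Cdh5 at -1.37 and Pecam1 at -0.63); the list's mean level was 0.09 and 0.15 in the sham pools of 24 h and 0.54 and 0.04 in the PMCAO pools. Of 6 striatal genes, 5 were lower with saline and 0 with PACAP38, and the mean level was 1.12 and 1.09 in sham and 0.32 and 0.82 in PMCAO. Of 6 cortical genes, 3 were lower with saline and 0 with PACAP38, with mean levels of -1.07, -1.03, -1.58 and -1.20 in the same order. Neuronal genes passed in 0 of 8 in either pair, with mean levels of 3.93, 3.94, 3.80 and 3.85. Other lists had more lower genes with PACAP38 than with saline. Among them were microglia and macrophages (1 of 6 with saline, 3 with PACAP38), thalamus (0 of 4 and 2), hypothalamus (0 of 6 and 2) and dentate gyrus (1 of 4 and 2).

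Neutrophil genes had a mean level of -5.52 and -5.35 in sham and -2.69 and -4.39 in PMCAO, with S100a8 6.22 above sham with saline and 2.49 with PACAP38, and 2 of the 6 genes were in no channel well above background. Olfactory bulb genes, a region that was to be removed, were higher in 5 of 5 with saline, and 0 were higher and 2 lower with PACAP38, and 5 of 5 were lower in PACAP38 over saline, by a median of -2.64; their mean level was -3.30 and -2.86 in sham and -1.06 and -3.63 in PMCAO. All 5 had a channel well above background. The part of vessel, striatal, cortical, leukocyte and olfactory bulb RNA in the guidance gene values was not tested.

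RefSeq promoters (GRCm38.p6, 250 bases before to 50 after the start site) were available for 56 member genes in 72 entries. The cAMP response element TGACGTCA was searched on both strands because PACAP38 signals through cAMP, and 1 of the 72 (1.39%) held it, against 1.79% of all 32851 promoters. That promoter was the one of Epha2, with the element, in capitals, starting 33 bases before the start site, in a window at chr4:141301177-141301206 on the plus strand.
Epha2 promoter: cgtggtttcggTGACGTCAgcgcagggcat
The AP-1 site TGANTCA occurred in 3 of 72 (4.17%, against 7.81% of all) and the hypoxia response core ACGTG in 13 of 72 (18.1%, against 19.6%), and neither was in the promoters of Epha2, Efna1, Robo4, Unc5b, Sema4a, Epha6, Epha10, Sema3a, Plxna3 or Ephb1. A match is a run of letters in this window and not a site shown to be used.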

How the data were processed

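Per the labels and methods, the authors labelled 900 ng of pooled RNA (300 ng from each of 3 mice) with Cy3 and Cy5, hybridized 8 two-colour arrays and extracted spots with Agilent Feature Extraction 9.5.3.1. The file headers give version 9.5.1.1 for the 6 h arrays. The deposited files hold background-subtracted, dye-normalized intensity per channel, a log10 ratio of Cy5 over Cy3, and flag scores. The deposited value table also holds Cy5 over Cy3. For a dye-swapped array its entries are therefore saline over PACAP38, and they are marked by a minus sign. The sign of the log10 ratio was turned where PACAP38 was in Cy3. Control spots and outlier spots were left out and spots of a probe were averaged. A dye swap repeats the same RNA, so the 2 arrays of a comparison counted as 1 replicate, although the labels number the pools separately.

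A ratio was called when over 1.5-fold or under 0.75-fold on both arrays. The cut-offs are the study's, which averaged the log ratios of the dye swap; requiring both arrays was added here, and the mean of the 2 arrays is given beside it. PMCAO was compared with sham on log2 intensity minus each channel's 75th percentile, averaged per pool, by limma 3.58.1 (R 4.3.3) with operation by time and treatment as terms and Benjamini-Hochberg adjustment over all probes. Means ± SE are from this fit. Where a pool had no value for a probe, the fit used the other pools. The code was tested on simulated data. Same-numbered arrays shared only dye orientation. The genes named were those called in a PACAP38 comparison, up to 10 highest and 10 lowest called between operations (the 3 highest and lowest where few were called), the brightest of each family, and Epha3 and Robo1. Any other gene named was chosen after its values were seen. The members and lists were chosen with earlier results of these data known. Precision is limited by the single pool per group, since repeat arrays of a pool do not measure the spread between animals.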

Additional observations from a re-analysis of the deposited data

Results flagged for a closer look

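The limma fit called the difference between the PMCAO effects of 24 h and 6 h for 26 members, and the 10 furthest in each direction are given here, as 24 h minus 6 h on the log2 scale. Upward were Efna2 (2.08), Sema3d (1.52), Sema3g (1.32), Plxnb1 (1.31), Ntn1 (1.10), Sema4d (1.06), Ntn4 (1.01), Plxna2 (0.995), Epha5 (0.94) and Epha3 (0.92). Downward were Slit2 (-2.38, A_52_P684535, and -1.09, A_51_P496562), Nrp1 (-1.88, A_51_P469285, and -1.17, A_52_P371237), Ephb1 (-1.67), Plxna3 (-1.41, A_51_P477641), Sema5b (-1.27, A_52_P127115), Sema3f (-1.22), Ephb4 (-1.18, A_52_P45596) and Ephb3 (-1.14). With the 6 h pools read from the first arrays alone, limma called 0 members.

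PACAP38 over saline pointed in opposite directions on both arrays of some pairs of comparisons, and these differences were not tested. Between PMCAO at 24 h and 6 h the mean ratio differed by -1.29 (log2) for Epha2, -0.97 for Unc5b, -0.80 for Epha10 and 0.31 for Robo1. Epha10 also differed by 0.63 between PMCAO and sham at 6 h, and Epha2 by -0.86 between sham at 24 h and 6 h. Both of these differences used the second sham array of 6 h, which stood apart from the other arrays.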

How the results depend on the processing

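Of 117 counts of called members under alternatives, 65 lay within 1.5 times the main count. Of 854 values of named probes, 687 stayed the same, 140 kept their direction but lost the call, and 14 gained it. A further 8, all PACAP38 ratios, moved by more than the SD of the 2 arrays, and 5 reversed. PMCAO over sham at 6 h gave 55 called members, 33 with the brightest probe per gene and 0 to 60 when an array number or pool was left out. It gave 0 with the 6 h pools read from the first arrays alone, a choice made after seeing the data. At 24 h the count was 1, and it was 19 with normexp, 2 without the treatment term, 9 with a variance trend, 0 with the brightest probe per gene, 0 to 7 with an array number or pool left out (7 without the PMCAO PACAP38 pool of 24 h) and 0 on the 4 pools of 24 h alone, also added later. With the replicate block, which treats channels as separate values, it was 10. Same-numbered arrays shared only dye orientation (deviations of log2 ratios correlated at 0.23 to 0.65, those of mean signals at -0.02 to 0.24), so the numbers do not pair animals; the block moved no other count beyond 1.5 times (56 at 6 h, 27 for 24 h minus 6 h). For 24 h minus 6 h the count was 26, and it was 54 with normexp and 16 with the brightest probe per gene. It was 0 to 33 with arrays or pools left out and 0 with the 6 h pools read from the first arrays alone. The mean of both times gave 1, and 0 with the array pair as a random block. PACAP38 over saline, where a call needs both arrays, gave 2 in sham at 6 h (0 with normexp, 8 on the mean of the arrays, 0 among probes well above background, 0 with the brightest probe per gene, 18 to 20 on a single array), 2 in PMCAO at 6 h (0, 9, 1, 1, and 18 to 34), 0 in sham at 24 h (1 on the mean, 16 to 17 on a single array) and 9 in PMCAO at 24 h (4 with normexp, 19 on the mean, 27 to 33 on a single array). Same-dye pairs of pools gave 28 at 6 h with saline (10 with normexp, 50 to 82 on a single array), 7 with PACAP38 (3, 30 to 72), 27 at 24 h with saline (15, 40 to 46) and 11 with PACAP38 (7, 18 to 25). Reversed was Slit2 (A_52_P684535) at 24 h (-4.26 to 0.11 on single arrays). For 24 h minus 6 h, Ntn4 reversed (-0.88 without replicate 2, 2.89 without replicate 1, -1.23 with the 6 h pools from the first arrays). So did Epha3 (-0.049 with the 6 h pools from the first arrays, 1.80 without replicate 1). Sema3f also reversed (0.026 with the 6 h pools from the first arrays, -2.15 without replicate 1). For these the cause was not tested. Each group was 1 pool, and dim probes limit what the arrays can show.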
